A study of Homo sapiens with 6 samples.

Results

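The genes described here are the ligands, receptors, secreted inhibitors and intracellular regulators of the Wnt pathway, measured in U-87 MG cells, an established human glioblastoma cell line. They were found by symbol in the platform annotation, taking symbols that begin with WNT, FZD, SFRP, DKK or RSPO and a digit together with 23 further symbols, and 43 of the 14884 named genes were members. Each gene was read at its probe set with the highest mean, and all 43 members had only 1 named probe set. Of the Wnt ligands only WNT2 was found by symbol, and CTNNB1 (beta-catenin), PORCN, TCF7, TCF7L1 and TCF7L2 were not analysed here. In the annotation used, 37519 of 53617 probe sets carried no symbol. Whether the array holds probes for the absent genes was thus not settled. There were 3 arrays of cells exposed continuously for 54 h to electromagnetic fields (RGFIELDS) in a culture box inside a Faraday chamber, and 3 arrays of cells that stayed unexposed in a box outside the chamber. Per the labels, exposure began 24 h after seeding, dishes were allocated at random, and the fields were set to target CHI3L1, HSP70, the mutated gene of alpha-kinase 2 and a microRNA, miR-381, none of which is a member. Both groups are the same cell line and carry no further treatment, and each array is an independent biological replicate. The field, the Faraday chamber and the box cannot be told apart.

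Wnt ligands are secreted lipid-modified proteins that bind frizzled receptors together with the co-receptors LRP5 or LRP6. In the canonical branch, binding stops the destruction complex around APC and AXIN1 from marking beta-catenin for degradation, and beta-catenin then activates genes with TCF and LEF factors, among them the feedback inhibitors AXIN2 and NKD1. Secreted frizzled-related proteins (SFRP) bind Wnt ligands outside the cell, Dickkopf proteins (DKK) block the co-receptors, and R-spondins (RSPO) protect frizzled receptors from the ubiquitin ligases RNF43 and ZNRF3. In glioblastoma the pathway is known for its part in stem-like growth and invasion.

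Expression is given on the log2 scale after robust multi-array averaging (RMA), so a difference of 1 is a 2-fold change, and array medians lay between 3.96 and 3.99. Over all probe sets, pairs of arrays correlated at 0.987 to 0.988 (exposed), at 0.985 to 0.986 (unexposed) and at 0.982 to 0.987 across groups. Of 14 markers of glial and mesenchymal glioma cells 10 were measured. VIM, TNC, CD44, CHI3L1 and EGFR were well above the array medians, with group means of 8.74 to 11.79. NES (6.79 in exposed and 6.87 in unexposed cells) was also above the medians. GFAP (5.21 in exposed and 4.86 in unexposed cells) and OLIG2 (4.42 in exposed and 4.71 in unexposed cells) lay nearer to them. The neural stem cell factor SOX2 (3.62 in exposed and 3.57 in unexposed cells) and the astrocytic S100B (3.26 in exposed and 3.68 in unexposed cells) lay below the medians. Among markers of other cell types, the fibroblast marker LUM rose by 0.83 (SE 0.12) and the neuronal marker MAP2 by 0.91 (SE 0.12) in exposed cells, both with limma's Benjamini-Hochberg adjusted p of 0.0287, while EGFR fell by 0.30 (SE 0.05, limma adjusted p = 0.0348). With 1 array left out, LUM passed only without exposed replicate 3, MAP2 only without exposed replicate 3 or unexposed replicate 1, and EGFR in none of the 6 settings. The mean level of the 3 measured fibroblast markers was 4.94 to 5.09 in exposed and 4.60 to 4.70 in unexposed arrays. That of the 2 measured neuronal markers was 6.05 to 6.20 in exposed and 5.57 to 5.67 in unexposed arrays. These means include LUM and MAP2. The fibroblast markers THY1 and DCN, the latter dim, changed by 0.03 and 0.28, and the neuronal SYP by 0.04. None of these 3 passed (limma adjusted p = 0.944, 0.353 and 0.882). The 4 endothelial, 2 leukocyte and 4 epithelial markers measured held no gene past the threshold. The leukocyte means lay at 4.51 to 4.61 in exposed and 4.08 to 4.43 in unexposed arrays, and the endothelial (4.72 to 4.80 in exposed and 4.64 to 4.86 in unexposed) and epithelial means (5.46 to 5.60 in exposed and 5.40 to 5.49 in unexposed) overlapped between groups. The part of these marker differences in the Wnt results was not tested.

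Few Wnt pathway genes differed between exposed and unexposed cells. The secreted inhibitor SFRP2 rose and the receptor FZD8 fell, and the other 41 members did not pass an adjusted p of 0.05 in limma with Benjamini-Hochberg adjustment over all genes. That is 1 of 43 members higher, where 1.40% of all genes were higher, and 1 of 43 lower, where 1.67% of all genes were lower. The members called are thus 4.65% of the list beside 3.06% of all genes (456 of 14884), which for so few genes is near the background. At an unadjusted p under 0.05, 4 members were higher (9.30%, beside 8.71% of all genes) and 3 lower (6.98%, beside 10.2%), or 7 of 43 in all (16.3%, beside 18.9%). The exposed and unexposed values did not overlap in 12 members (27.9%), beside 27.0% of all genes. Exposed values lay above in 8 of them (18.6% of members, beside 13.2% of all genes) and below in 4 (9.30%, beside 13.8%). The median log2 change over the members was 0.04, beside 0.003 over all genes, and the median absolute change was 0.10 for members and 0.13 for all genes. Of the 43 members, 33 differed by less than 0.2 between groups. A whole culture was measured on each array, so a change within each cell and a change in the share of cells that express a gene cannot be told apart.

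**Figure D1:**
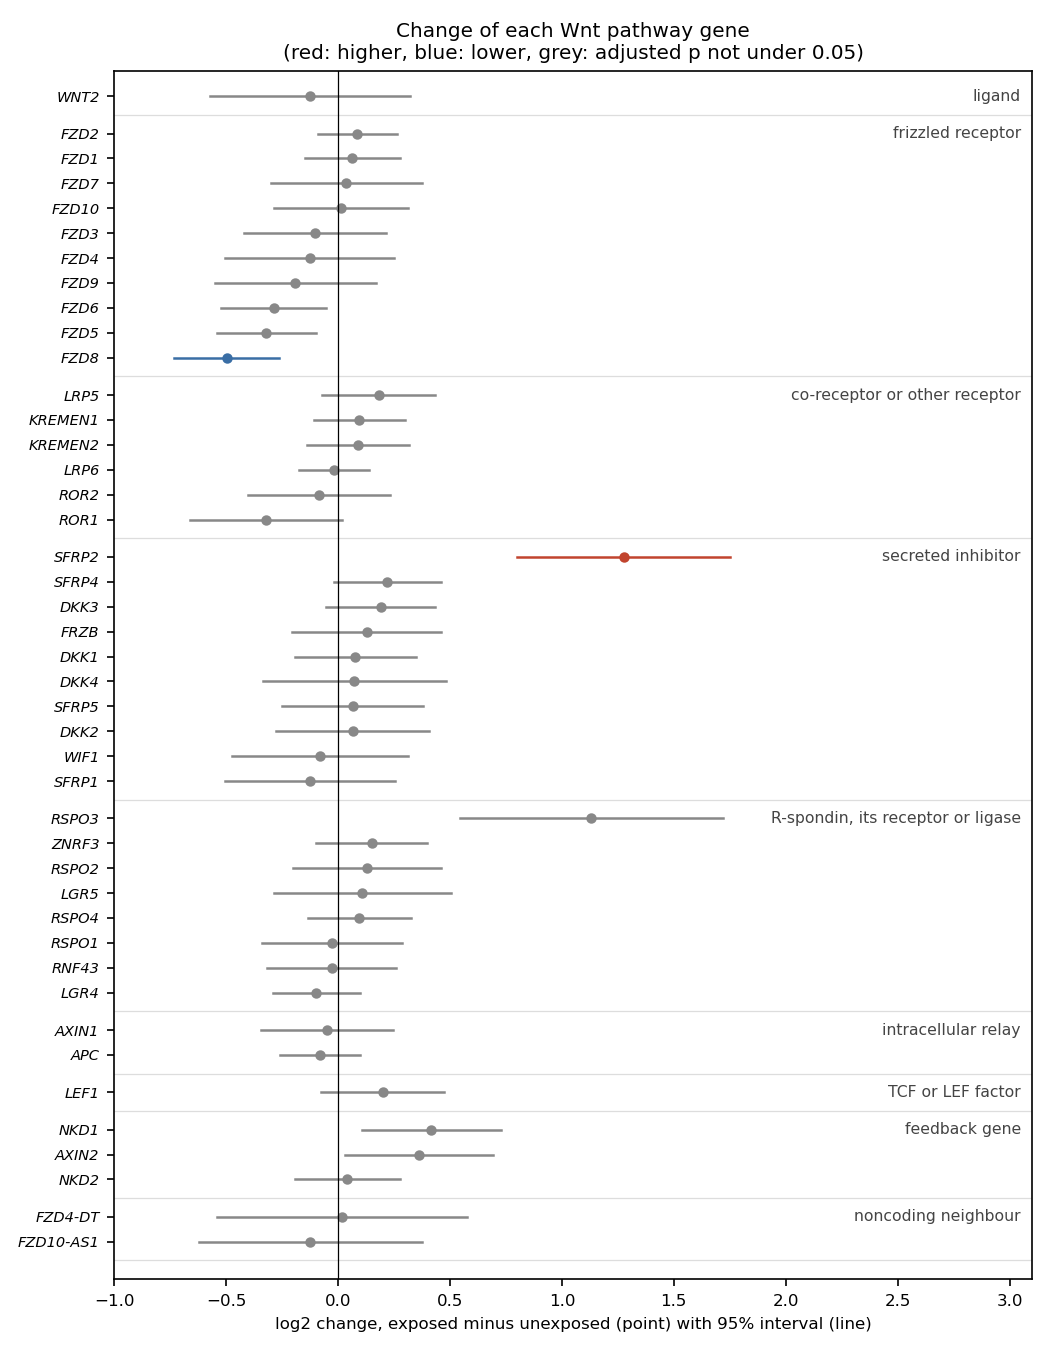
Log2 change of each of the 43 Wnt pathway genes, exposed minus unexposed (horizontal axis), with its 95% interval from limma (line), grouped by role, 3 arrays per group. SFRP2 (red, 1.28) and FZD8 (blue, -0.50) passed the threshold; RSPO3, at 1.13, did not pass, and the other members lie closer to 0.

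The 250 bases before the start of the genes with the largest changes are printed here, because the promoters are where the pathway's own TCF and LEF factors would be looked for, with DKK1 beside them as the member promoter that held a match. The sequences come from RefSeq (GRCh38.p14), 5′ to 3′ on the gene's strand, and 25 of the 43 members had an entry. The feedback genes AXIN2 and NKD1 had none, so their promoters were not searched. Capitals mark matches, on either strand, to the TCF/LEF core CTTTGAA, with T allowed in place of either or both of its closing A letters, to the TATA box core TATAAA and to the CCAAT box core CCAAT, which reads as its reverse complement where it lies on the opposite strand, and no matches overlap. The regions are chr4:153789084-153789333 (minus strand) for SFRP2, chr6:127118421-127118670 (plus strand) for RSPO3, chr10:35642297-35642546 (minus strand) for FZD8 and chr10:52314031-52314280 (plus strand) for DKK1.
SFRP2: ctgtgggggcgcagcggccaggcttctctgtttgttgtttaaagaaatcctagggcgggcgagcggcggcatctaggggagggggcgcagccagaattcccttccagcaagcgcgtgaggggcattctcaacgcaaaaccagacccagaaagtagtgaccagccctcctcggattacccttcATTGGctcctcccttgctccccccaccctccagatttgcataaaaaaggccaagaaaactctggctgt
RSPO3: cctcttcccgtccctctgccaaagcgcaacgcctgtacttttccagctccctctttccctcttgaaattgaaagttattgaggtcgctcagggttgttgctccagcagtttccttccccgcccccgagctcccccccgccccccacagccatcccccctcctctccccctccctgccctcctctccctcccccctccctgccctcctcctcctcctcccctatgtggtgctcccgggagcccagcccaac
FZD8: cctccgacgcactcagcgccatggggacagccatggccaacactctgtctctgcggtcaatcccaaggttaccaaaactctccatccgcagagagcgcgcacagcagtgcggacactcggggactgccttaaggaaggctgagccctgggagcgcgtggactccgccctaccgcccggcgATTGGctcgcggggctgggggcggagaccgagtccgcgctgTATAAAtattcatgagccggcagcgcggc
DKK1: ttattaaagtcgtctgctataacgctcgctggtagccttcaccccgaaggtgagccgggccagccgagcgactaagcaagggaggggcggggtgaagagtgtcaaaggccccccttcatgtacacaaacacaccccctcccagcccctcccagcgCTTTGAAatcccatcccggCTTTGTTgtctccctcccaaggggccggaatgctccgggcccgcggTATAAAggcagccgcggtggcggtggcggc
The TCF/LEF core stood in 1 of the 25 member promoters, that of DKK1, and in 12.1% of all 27305 promoters of this length. DKK1 held it at 95 and 76 bases before the start. TATAAA stood in 2 member promoters, FZD8 at 29 and DKK1 at 30 bases before the start, and in 11.1% of all promoters. CCAAT stood in 13 of the 25 member promoters and in 33.0% of all promoters, and in SFRP2 and FZD8 its match began 68 and 70 bases before the start. The median GC content was 70.8% for member promoters and 58.0% for all promoters, so the windows differ in base composition. These are matches of letters in short windows, chosen after the results were known, and a window without a match says nothing of a factor's binding elsewhere.

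Among the 10 secreted inhibitors, SFRP2 rose and the other 9 did not pass. SFRP2 (probe set 16980762), which carries a frizzled-like domain that binds Wnt ligands, stood at 7.12, 7.88 and 7.03 in the 3 exposed arrays, against 6.09, 5.99 and 6.12 in the 3 unexposed arrays. All exposed values lay above all unexposed values, exposed replicate 2 was the highest, and the unexposed arrays were close together. Exposed cells averaged 7.34 ± 0.46 and unexposed cells 6.07 ± 0.07 (SD, n = 3 each). The log2 change was 1.28 (SE 0.21, 95% interval 0.80 to 1.75), or 2.42-fold, with limma's Benjamini-Hochberg adjusted p of 0.0312. It was the 4th largest rise among all 14884 genes. With 1 array left out the change lay between 1.01 (without exposed replicate 2) and 1.43 (without exposed replicate 3). The call held without exposed replicate 3 (adjusted p = 0.0322) and was lost without any of the other 5 arrays (limma adjusted p of 0.0637 to 0.120); in 4 of those 5 settings no gene of the 14884 passed, at 2065 to 2287 genes with an unadjusted p under 0.05.

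None of the other SFRP genes measured passed. SFRP4 had 4.99, 5.02 and 4.97 in exposed arrays, against 4.67, 4.77 and 4.86 in unexposed arrays, a change of 0.22 (95% interval -0.02 to 0.46, limma adjusted p = 0.301). Its groups did not overlap. SFRP1 stood at 4.22, 4.39 and 4.30 in exposed arrays, against 4.55, 4.64 and 4.09 in unexposed arrays, a change of -0.12 (95% interval -0.51 to 0.26, limma adjusted p = 0.761) with overlapping groups. That SFRP1 change was -0.08, -0.07 and -0.02 without exposed replicate 1, unexposed replicate 1 and unexposed replicate 2, and -0.29 without unexposed replicate 3. DKK1, which blocks LRP5 and LRP6, stood at 7.05, 7.33 and 7.03 in exposed arrays, against 6.88, 7.21 and 7.09 in unexposed arrays. Its change of 0.08 had a 95% interval of -0.19 to 0.35, and it was -0.02 without exposed replicate 2 and -0.01 without unexposed replicate 1. DKK3, a divergent Dickkopf family member, differed by 0.19 (95% interval -0.05 to 0.43), or 0.12 without unexposed replicate 2, with no overlap between groups. The other 5 inhibitors (FRZB, SFRP5, WIF1, DKK2 and DKK4) had changes of -0.08 to 0.13 and overlapping groups, and their mean levels of 2.68 to 4.84 include values below the array medians, where a probe set may hold little signal from its gene.

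**Figure D2:**
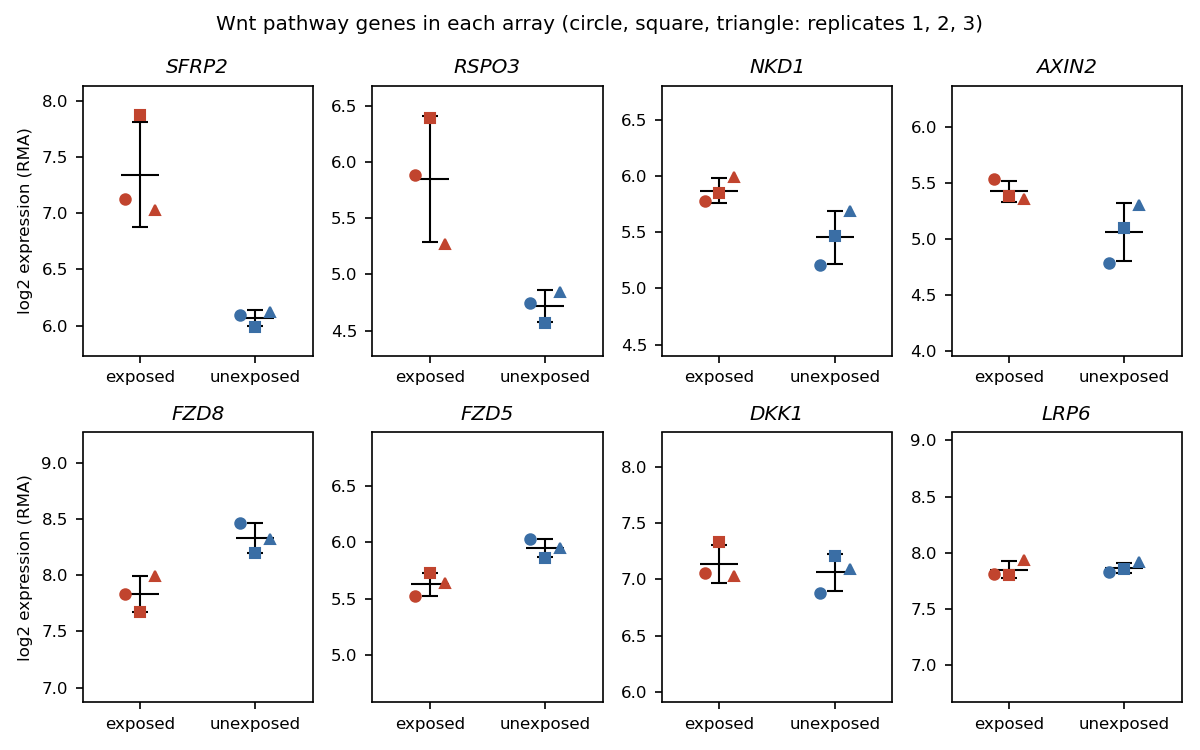
RMA log2 expression (vertical axes, each spanning the same width) of 8 Wnt pathway genes in each array, exposed cells left and unexposed cells right; lines are the mean ± SD of 3 arrays. SFRP2 and RSPO3 stand higher in all 3 exposed arrays with exposed replicate 2 (square) at the top, FZD8 stands lower in all 3, and DKK1 and LRP6 overlap.

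Of the 8 R-spondin genes, receptors and ligases none passed the threshold, and RSPO3 came nearest to it. RSPO3 (probe set 17012392), a secreted protein that raises frizzled receptors at the cell surface through LGR receptors and the ligases RNF43 and ZNRF3, stood at 5.89, 6.39 and 5.27 in exposed arrays, against 4.74, 4.56 and 4.84 in unexposed arrays. The groups did not overlap, and exposed replicate 2 was again the highest and exposed replicate 3 the lowest of the exposed arrays. It averaged 5.85 ± 0.56 in exposed cells and 4.72 ± 0.14 in unexposed cells (SD, n = 3 each), so that its log2 change was 1.13 (SE 0.25, 95% interval 0.54 to 1.72), or 2.19-fold, at a limma adjusted p of 0.0576. This was the 8th largest positive change among all genes, and the exposed arrays spread more than the unexposed arrays. RSPO3 passed without exposed replicate 3 (change 1.42, limma adjusted p = 0.0294), and its change was 0.86 without exposed replicate 2.

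The genes that act with RSPO3 did not pass. ZNRF3, a ligase that removes frizzled receptors, stood at 7.40, 7.26 and 7.23 in exposed arrays, against 6.98, 7.35 and 7.11 in unexposed arrays, a change of 0.15 (95% interval -0.10 to 0.40). The ZNRF3 change was 0.10 without exposed replicate 1, 0.07 without unexposed replicate 1 and 0.25 without unexposed replicate 2. LGR4, an R-spondin receptor, stood at 7.04, 7.09 and 7.08 in exposed arrays, against 7.03, 7.29 and 7.17 in unexposed arrays, a change of -0.10 (95% interval -0.29 to 0.10) that was -0.16 without unexposed replicate 1 and -0.03 without unexposed replicate 2. Both genes had overlapping groups. The other 5 (RSPO1, RSPO2, RSPO4, LGR5 and RNF43) had changes of -0.03 to 0.13, all with overlapping groups and limma adjusted p of 0.692 or more.

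Of the 10 frizzled receptors, which bind Wnt ligands at the cell surface, FZD8 fell and 9 did not pass, with 6 negative and 4 positive values (7 and 3 with quantile normalization again). FZD8 (probe set 16713309) stood at 7.83, 7.67 and 7.99 in exposed arrays, against 8.46, 8.20 and 8.32 in unexposed arrays. All exposed values lay below all unexposed values, and exposed replicate 2 was the lowest. Exposed cells averaged 7.83 ± 0.16 and unexposed cells 8.33 ± 0.13 (SD, n = 3 each), and the log2 change was -0.50 (SE 0.10, 95% interval -0.73 to -0.26) or 1.41-fold lower, with a limma adjusted p of 0.0465. The call was close to the threshold and was lost when arrays were normalized again by quantiles (limma adjusted p = 0.0559), when they were centred on ribosomal protein genes (0.0712), and without any array but exposed replicate 3 (0.0968 to 0.153). Its change was the 253rd most negative among all genes.

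FZD5 and FZD6 also had lower values in every exposed array without passing. FZD5 stood at 5.52, 5.73 and 5.64 in exposed arrays, against 6.03, 5.87 and 5.95 in unexposed arrays, a change of -0.32 (95% interval -0.54 to -0.10, limma adjusted p = 0.120). FZD6 stood at 7.96, 7.85 and 8.19 in exposed arrays, against 8.19, 8.42 and 8.25 in unexposed arrays, a change of -0.29 (95% interval -0.52 to -0.05, limma adjusted p = 0.174), and exposed replicate 3 all but touched the unexposed arrays. FZD2 had the smallest p among frizzled genes with positive values, with 6.42, 6.42 and 6.49 in exposed arrays, against 6.34, 6.42 and 6.32 in unexposed arrays, a change of 0.09 (95% interval -0.09 to 0.26). The FZD2 groups only just did not overlap, with a lowest exposed value of 6.4249 and a highest unexposed value of 6.4243. The other 6 (FZD1, FZD3, FZD4, FZD7, FZD9 and FZD10) had changes of -0.19 to 0.06, and all 6 overlapped between groups. The 2 noncoding genes named after frizzled genes, FZD10-AS1 and FZD4-DT, were dim, with mean levels of 3.57 and 2.58, and changed by -0.12 and 0.02 without passing.

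None of the 6 co-receptors and other receptors passed (limma, 0 also at an unadjusted p under 0.05, beside 18.9% of all genes). LRP5, a Wnt co-receptor, stood at 4.61, 4.56 and 4.62 in exposed arrays, against 4.39, 4.51 and 4.34 in unexposed arrays, a change of 0.18 (95% interval -0.07 to 0.43) with no overlap between groups. LRP6, its close relative, had 7.81, 7.80 and 7.94 in exposed arrays, against 7.83, 7.85 and 7.92 in unexposed arrays. The LRP6 change of -0.02 had a 95% interval of -0.17 to 0.14 and was 0.006 with quantile normalization again and 0.06 with centring on ribosomal protein genes. ROR1, a receptor tyrosine kinase-like receptor for Wnt ligands, stood at 3.76, 4.15 and 4.14 in exposed arrays, against 4.30, 4.43 and 4.29 in unexposed arrays, a change of -0.32 (95% interval -0.66 to 0.02, limma adjusted p = 0.292). Its groups did not overlap, and its change was -0.19 without exposed replicate 1. ROR2 and the Dickkopf receptors KREMEN1 and KREMEN2 had changes of -0.09 to 0.10 with overlapping groups. WNT2, the ligand measured, was dim in both groups, with 2.999, 3.178 and 3.413 in exposed arrays, against 3.156, 3.652 and 3.156 in unexposed arrays, a change of -0.12 (95% interval -0.57 to 0.32) that was 0.04 without unexposed replicate 2.

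Inside the cell, the feedback genes NKD1 and AXIN2 had higher values in every exposed array and did not pass over all genes. NKD1, which binds dishevelled and dampens the signal, stood at 5.77, 5.85 and 5.99 in exposed arrays, against 5.21, 5.46 and 5.69 in unexposed arrays, a change of 0.42 (95% interval 0.11 to 0.73, limma adjusted p = 0.143). AXIN2, a scaffold of the destruction complex and a widely used readout of canonical signalling, stood at 5.53, 5.38 and 5.36 in exposed arrays, against 4.79, 5.10 and 5.30 in unexposed arrays, a change of 0.36 (95% interval 0.03 to 0.69, limma adjusted p = 0.224) that was 0.23 without unexposed replicate 1. For both genes the unexposed arrays spread more than the exposed arrays, and unexposed replicate 3 lay just under the lowest exposed value. NKD2, the relative of NKD1, changed by 0.04 (95% interval -0.19 to 0.28), and by 0.09, 0.005 and 0.03 without unexposed replicates 1, 2 and 3. LEF1, a transcription factor that works with beta-catenin, stood at 5.96, 6.07 and 5.71 in exposed arrays, against 5.77, 5.78 and 5.59 in unexposed arrays, a change of 0.20 (95% interval -0.07 to 0.47) with overlapping groups, which was 0.12 without exposed replicate 2 and 0.30 without exposed replicate 3. Of the destruction complex, APC had 7.14, 7.34 and 7.16 in exposed arrays, against 7.28, 7.33 and 7.28 in unexposed arrays, a change of -0.08 (95% interval -0.26 to 0.10), which was -0.04, -0.14 and -0.06 without exposed replicates 1, 2 and 3. AXIN1 changed by -0.05 (95% interval -0.34 to 0.24), and by 0.03 when centred on ribosomal protein genes.

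**Figure D3:**
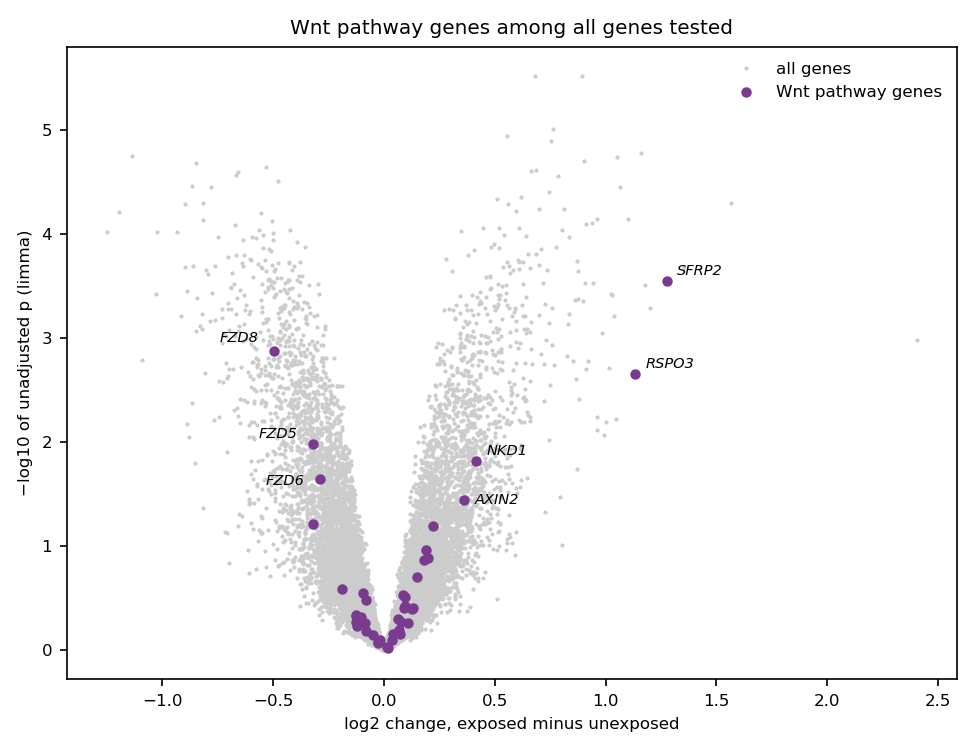
Log2 change, exposed minus unexposed (horizontal axis), against -log10 of the unadjusted limma p (vertical axis) for all 14884 genes (grey) and the 43 Wnt pathway genes (purple). SFRP2 and RSPO3 lie at the right edge of the cloud at 1.28 and 1.13, FZD8 lies within it at -0.50, and most members sit near 0.

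Other genes of the pathway were counted in 3 lists. In the list of genes that relay the signal to beta-catenin and its co-factors, 22 of 40 entries were measured and 0 passed in limma, beside 3.06% of all genes. At an unadjusted p under 0.05, 1 of the 22 was higher and 3 were lower, beside 8.71% and 10.2% of all genes, and the list's median change was -0.07. BTRC, the ubiquitin ligase subunit that recognises beta-catenin, had 7.46, 7.47 and 7.41 in exposed arrays, against 7.13, 7.30 and 7.30 in unexposed arrays, a change of 0.20 (95% interval 0.03 to 0.38, limma adjusted p = 0.189). The co-activator EP300 had 10.02, 10.02 and 9.86 in exposed arrays, against 10.12, 10.21 and 10.18 in unexposed arrays, a change of -0.21 (95% interval -0.35 to -0.06, limma adjusted p = 0.123). In neither gene did the groups overlap.

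Of 40 listed Wnt target genes 33 were measured, of which 1 rose, 1 fell and 31 did not pass. The share called was 6.06%, or 2 of 33, beside 3.06% of all genes, which for so few genes is near the background. The median change was 0.03. Of the 33, 4 were higher and 7 lower at an unadjusted limma p under 0.05, beside 8.71% and 10.2% of all genes. Differences from these shares were not tested. CCN4, a matricellular protein also called WISP1, rose, with 6.96, 7.21 and 6.69 in exposed arrays, against 6.24, 5.83 and 6.11 in unexposed arrays. Its log2 change was 0.90 (SE 0.15, 1.86-fold, limma adjusted p = 0.0336), and the highest exposed array was again replicate 2. CCND1, the G1 cyclin D1, fell, with 10.16, 10.15 and 10.15 in exposed arrays, against 10.41, 10.50 and 10.45 in unexposed arrays, a change of -0.30 (SE 0.05, limma adjusted p = 0.0312). CCN4 passed without exposed replicate 3 (limma adjusted p = 0.0318) and not without any other array, and CCND1 was lost without any of the 6 arrays (0.0549 to 0.120) and with centring on ribosomal protein genes (-0.22, limma adjusted p = 0.112).

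In the list of planar polarity and ligand handling genes, 29 of 48 entries were measured, of which 1 fell and 28 did not pass. The share called was 3.45%, near the 3.06% of all genes, and the median change was 0.09. Of the 29, 7 were higher and 4 lower at an unadjusted limma p under 0.05, beside 8.71% and 10.2% of all genes. Both shares are larger than those of all genes, the lower one only slightly. The list is short and was chosen with earlier results of these data known, and the difference was not tested. WLS, the carrier that brings Wnt ligands to the cell surface for secretion, fell, with 8.76, 8.69 and 8.99 in exposed arrays, against 9.26, 9.28 and 9.23 in unexposed arrays. The change was -0.44 (SE 0.08, 1.36-fold lower, limma adjusted p = 0.0394), with exposed replicate 2 the lowest array, and it passed without exposed replicate 3 (0.0293) but not without any other array (0.0806 to 0.149). NOTUM, an extracellular enzyme that inactivates Wnt ligands by removing their lipid, had 5.66, 6.03 and 5.68 in exposed arrays, against 5.14, 5.23 and 5.40 in unexposed arrays. Its groups did not overlap, and its change of 0.53 (95% interval 0.23 to 0.84) did not pass (limma adjusted p = 0.0736).

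**Figure D4:**
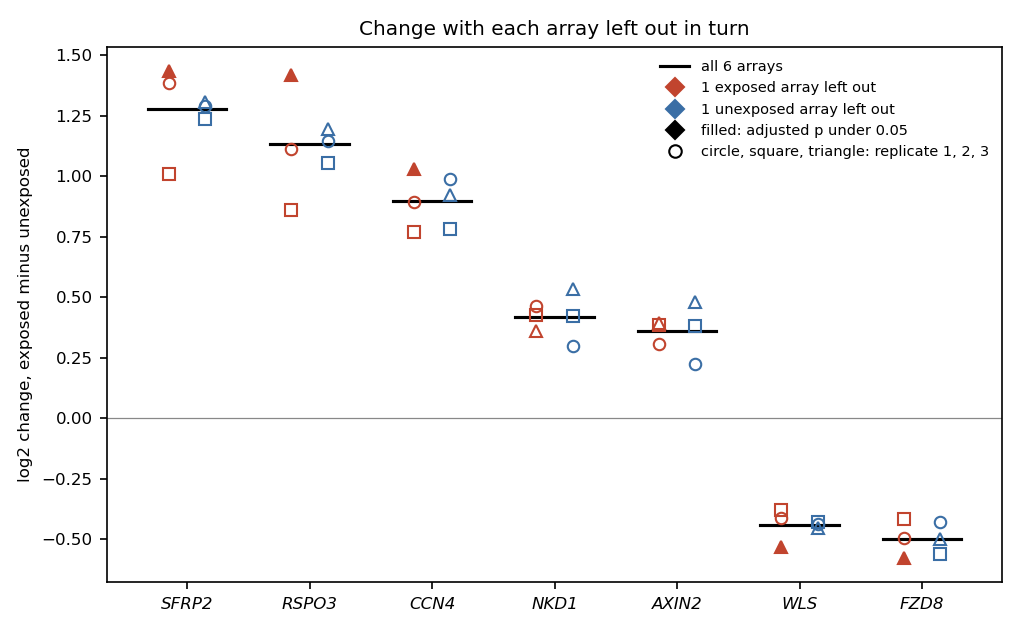
Log2 change, exposed minus unexposed (vertical axis), of 7 Wnt pathway genes with all 6 arrays (black line) and with each array left out in turn (symbols), filled where the adjusted p was under 0.05. No change crosses 0; SFRP2, RSPO3, CCN4, WLS and FZD8 are farthest from 0 without exposed replicate 3, the setting in which each is filled.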

How the data were processed

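Total RNA from 3 exposed and 3 unexposed cultures was measured on 1-colour Affymetrix arrays. The deposited table holds 1 log2 value per probe set and array, made with RMA (background correction, normalization between arrays, summary per probe set) in Affymetrix Expression Console 3.0 and Transcriptome Analysis Console 3.0, per the submitters' processing notes; the sources used here give neither further settings nor a build. There are no detection calls, and precision is limited by the small number of arrays. Of 53617 probe sets 16098 carried a gene symbol, giving 14884 genes. Each sample was grouped by its title, and its source name gave the same group; the description field of the exposed samples also calls those cells controls, and this conflict in the labels could not be settled. All probe sets were fitted with limma 3.58.1 in R 4.3.3 (lmFit and eBayes, mean-variance trend on, two-sided, no covariate, no filter), and p-values were adjusted by Benjamini-Hochberg over the genes' representative probe sets, at a threshold of 0.05. The procedure was run on simulated data with independent normal noise for each probe set and array. Such data hold no dependence between genes or arrays, so that run does not bear on how stable the calls here are. Errors are SE of the fit or SD over arrays, and intervals are 95%.

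The members and gene lists were chosen with earlier results of these data known. Genes given with array values are the members and list genes past the threshold and, in each role class or list, the gene with the smallest p in each direction. FZD5, FZD6, SFRP4, DKK1, LRP6, ZNRF3 and AXIN2 were added to these after their values were seen. DKK3, AXIN1, NKD2, EGFR, LUM and MAP2 were also added after their values were seen, with their changes but without array values. Alternatives covered the replicate block, 3 scalings, the variance model, a filter on dim probe sets, the probe set rule, the adjustment and each array left out. Figures used matplotlib 3.10.9.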

Additional observations from a re-analysis of the deposited data

How the results depend on the processing

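The replicate numbers did not pair the arrays: deviations from the group means correlated at -0.0164, -0.0253 and 0.00964 for same-numbered arrays. With the replicate number as a block, without a mean-variance trend or without variance moderation, 0 Wnt members, 0 target genes and 0 planar polarity and ligand handling genes passed in either direction (limma; unadjusted p under 0.05 in 6, 7 and 6 members); of all 14884 genes 0, 0 and 4 passed there (2286, 2220 and 2649 at an unadjusted p under 0.05). The calls of LUM, MAP2 and EGFR were lost in these 3 settings too, and that of EGFR also with ribosomal centring (0.162) and over all probe sets (0.0565). Adjusted over all probe sets, SFRP2 passed and FZD8 did not, so 0 members were lower, 0 targets were higher and 0 planar polarity and ligand handling genes were lower. With quantile normalization again, 0 members were lower, 2 targets were higher and 2 lower. With arrays centred on ribosomal protein genes, 0 members were lower, the target called lower was not CCND1, and the median change over the members was 0.12 in place of 0.04, where that of all genes was 0.08. When probe sets at or under the median level were left out, 7.03% of 10712 genes were called, 2 members (SFRP2 and RSPO3) and 2 targets were higher, and 3 targets and 2 planar polarity and ligand handling genes were lower. When limma was fitted to the representative probe sets only, a setting chosen after seeing the data that called 1209 genes, 2 members were higher, 3 targets were higher and 4 lower, and 1 planar polarity and ligand handling gene was higher and 2 were lower. Leaving out 1 array at a time gave 0 to 2 members higher, 0 to 1 lower, 0 to 1 targets higher, 0 to 0 targets lower, and 0 to 2 planar polarity and ligand handling genes lower. The median over the members then lay between 0.00682 and 0.0630. Among the 31 genes followed through these settings, those of unstable sign were WNT2, DKK1, LRP6 and AXIN1. With 1 array left out, WNT2 lay at -0.232 to 0.0409, DKK1 at -0.0196 to 0.152, LRP6 at -0.0603 to 0.00793 and AXIN1 at -0.130 to 0.0644. LRP6 was 0.00598 with quantile normalization again and 0.0621 with ribosomal centring, and AXIN1 was 0.0299 with ribosomal centring. The signs of FZD10-AS1, FZD4-DT, THY1, DCN and SYP were not followed. Counted by role, signs also turned: with ribosomal centring 7 of 8 R-spondin genes, receptors and ligases were positive in place of 5, with quantile normalization 3 of 10 frizzled genes in place of 4, and with either 4 of 6 co-receptors in place of 3. The cause of the lost calls was not tested. Of the 43 members 9 had mean levels below the median of all probe sets (WNT2, LGR5, RSPO2, DKK2, DKK4, FRZB, WIF1 and both noncoding genes), where signal over background limits what can be measured.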
